A study of Sus scrofa with 6 samples.

Results

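Gene expression was examined for ATF4 target genes in cultured pig cells labelled as immature Sertoli cells, the nurse cells of the testis, from fetuses at 80 to 90 days of gestation. The set was chosen by symbol and names 10 genes: the transcription factor ATF4 and its targets DDIT3, TRIB3, CHAC1, DDIT4, SESN2, ASNS, PHGDH, PSAT1 and SHMT2. Of these, 9 were among the 17670 genes of the count table and all 9 had enough counts to be tested. The identifier paired with the symbol ATF4 had no row, so ATF4 itself was not analysed here. RNA sequencing was done on 3 libraries from cells given 250 µM AA2P (the phosphate ester of ascorbic acid, from which cells release vitamin C), after 6 h of culture, and on 3 control libraries from the same kind of culture without it. Both groups were kept in minimum essential medium with fetal bovine serum and antibiotics. The length of the treatment, a vehicle for the controls and the number of animals or cultures behind the libraries are not given in the labels. The p-values therefore cover the spread among these libraries alone, and that spread may be technical.

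ATF4 is the effector of the integrated stress response. Kinases that sense a shortage of amino acids, unfolded protein in the endoplasmic reticulum, a lack of haem or viral RNA phosphorylate the initiation factor eIF2, which slows most translation while that of ATF4 increases, so the amount of ATF4 protein cannot be read from its mRNA. ATF4 then binds with partner bZIP proteins to genes that import amino acids, make asparagine, serine and glycine, and restrain growth through mTORC1, a roster known mainly from human and mouse cells.

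Libraries held 18747307 to 23122000 counts with AA2P and 19299585 to 23521291 in controls. AA2P library 3 lay nearest to the controls, with a mean correlation of log2 CPM (counts scaled to a common library size) to them of 0.970 across genes, against 0.959 and 0.961 for AA2P libraries 1 and 2. Of 12701 genes tested, 3302 were higher and 3313 lower with AA2P by edgeR at an adjusted p of 0.05, a threshold used throughout. With scaling by library totals in place of TMM factors the counts were 5720 and 1824, so 75.8% of calls were higher against 49.9%, and the median gene shifted by 0.17 on the log2 scale. The markers bore out the label only in part. AMH, WT1, INHBB and CLU were present, but INHA, DHH, NR5A1 and KITLG, also listed for Sertoli cells, were near 0 in both groups. Renal tubule markers were well above 0 in both. AMH, the Sertoli hormone, was at 32.7 to 37.1 CPM with AA2P and 34.7 to 37.8 CPM in controls and did not pass the test (adjusted p = 0.384, edgeR). SOX9, which fell, was at 1.70 to 2.58 CPM with AA2P and 11.0 to 12.3 CPM in controls, and INHA had 0 counts in the AA2P libraries and 2 in the controls. DHH had 8 counts over the AA2P libraries and 3 over the controls, NR5A1 5 and 9, and KITLG 10 and 3. Of 12 Sertoli markers 9 had a row and 5 could be tested. Of these 5, 4 fell with AA2P: SOX9 by 5.20-fold, CLU by 3.25-fold, INHBB by 1.73-fold and WT1 by 1.71-fold. The summed level of the 9, mostly CLU, was 1134 to 1667 CPM with AA2P and 4129 to 4438 CPM in controls. All 8 renal tubule markers with a row passed the test as higher with AA2P, by 1.36-fold to 7.94-fold, with a summed level of 1164 to 1518 CPM against 363 to 419 CPM in controls. Markers of other cells were uneven. DDX4 of germ cells had 13 counts over the AA2P libraries and 12 over the controls. Of the macrophage markers CSF1R had 1 count with AA2P and 2 in controls, while CD14 was at 18.5 to 22.5 CPM with AA2P and 26.5 to 29.5 CPM in controls and fell. Endothelial PECAM1 rose 3.10-fold, at 6.08 to 7.83 CPM with AA2P and 2.03 to 2.70 CPM in controls. Stromal COL1A1 fell 2.52-fold, at 5.71 to 10.1 CPM with AA2P and 19.6 to 22.2 CPM in controls, and Leydig STAR, at 6.31 to 7.33 CPM with AA2P and 5.58 to 5.84 CPM in controls, did not pass but was called higher with library totals (adjusted p = 0.0105, edgeR). The summed peritubular and smooth muscle markers, mostly TAGLN, were at 293 to 345 CPM with AA2P and 413 to 419 CPM in controls, with ACTA2 and MYH11 near 0. Among them TAGLN was lower by 1.22-fold, a call lost with library totals (adjusted p = 0.0718, edgeR). DES fell 4.64-fold, at 6.49 to 10.1 CPM with AA2P and 37.4 to 41.2 CPM in controls, and CNN1 rose 1.96-fold, at 0.986 to 1.30 CPM with AA2P and 0.451 to 0.728 CPM in controls, a call lost by the DESeq2 Wald test (adjusted p = 0.0736) and without control library 1 (adjusted p = 0.0645, edgeR). The part of these shifts in the results on ATF4 targets was not tested.

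The ATF4 targets were lower with AA2P. Of the 9 tested, 8 fell, none rose and 1, DDIT3, did not pass the test, while 26.1% of all tested genes were called lower. The median log2 fold change of the 9 was -1.22, against -0.0005 for all tested genes, and 5 of the 9 fell at least 2-fold, as did 3.48% of all genes. In 8 of the 9 the AA2P and control libraries did not overlap, a pattern found in 29.5% of all genes with AA2P lower. CHAC1, TRIB3, DDIT4 and ASNS had the largest decreases of the set and PSAT1 the smallest adjusted p. The same 8 genes were called lower under all 14 alternatives of processing that were run, and scaling by library totals left their log2 fold changes between -2.59 and -0.43. In bulk RNA, fewer cells of a type and less RNA per cell cannot be told apart.

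**Figure D1:**
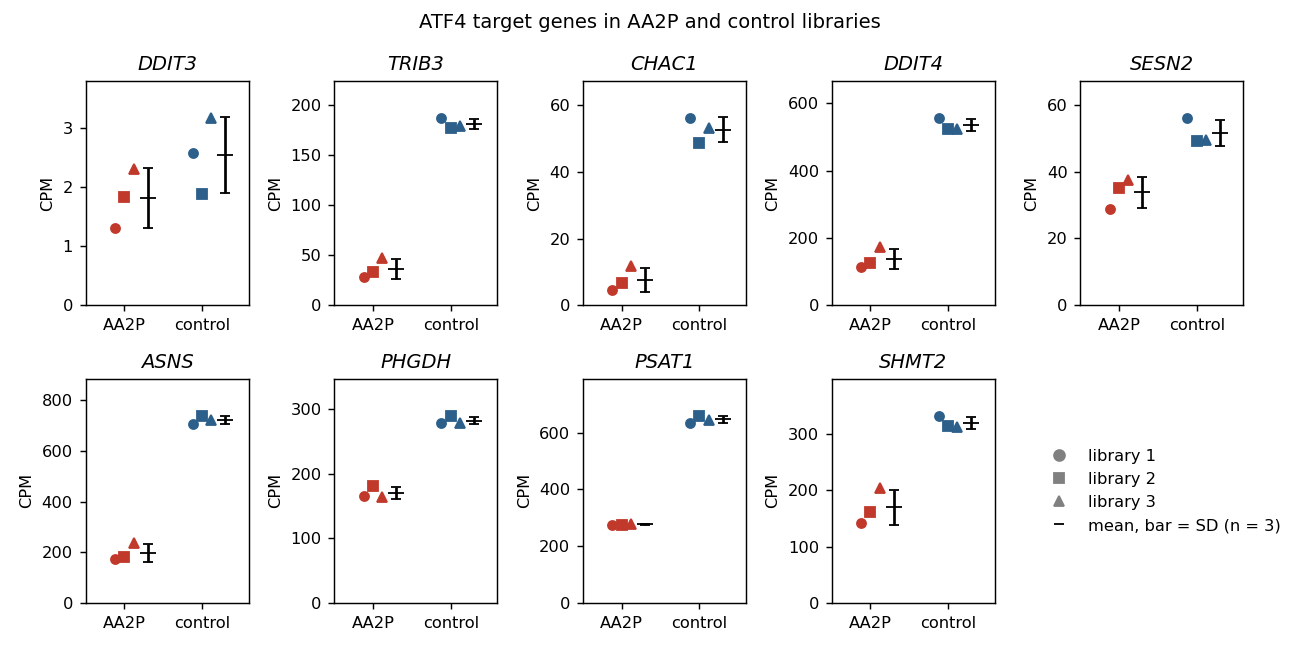
Normalised read counts (CPM, TMM scaled) of the 9 measured ATF4 targets, one panel per gene with its own linear axis from 0; symbols are the 3 libraries of each group and bars show the mean and SD. In every panel but that of DDIT3 the AA2P libraries lie below all control libraries, and AA2P library 3 is the nearest to the controls for 8 of the 9 genes, PHGDH being the exception.

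Among the regulators, TRIB3 encodes a pseudokinase that binds AKT and ATF4 and dampens the response that induces it. It was at 27.7, 33.4 and 47.3 CPM in AA2P libraries 1 to 3, against 186, 177 and 179 CPM in control libraries 1 to 3. All AA2P libraries were below all controls, and the spread was wider with AA2P, with a coefficient of variation of 28.0% against 2.66% in controls. TRIB3 fell 4.97-fold, with a log2 fold change of -2.31 ± 0.12 (SE) and an adjusted p of 1.7e-10 by edgeR's quasi-likelihood test. It ranked 83 of 12701 genes from the lowest log2 fold change.

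DDIT3 encodes CHOP, the bZIP factor that follows ATF4 in prolonged stress. Its row held few reads: 26, 37 and 56 counts in the AA2P libraries and 57, 34 and 65 in the controls, or 1.30, 1.83 and 2.30 CPM with AA2P and 2.57, 1.87 and 3.16 CPM in controls. The groups overlapped, since control library 2 lay below AA2P library 3. The log2 fold change of DDIT3 was -0.47 with a 95% interval from -0.98 to 0.03, and its adjusted p was 0.11 by edgeR. It passed only when AA2P library 3 (-0.70, adjusted p = 0.0219) or control library 2 (-0.64, adjusted p = 0.0468) was left out, in a range of adjusted p from 0.0219 to 0.402 over 13 alternatives. In RefSeq's annotation of Sscrofa11.1 the span of DDIT3 overlaps that of MARS, the methionyl-tRNA synthetase gene, so reads could have been divided between them in a way that the sources do not state.

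CHAC1 encodes a gamma-glutamylcyclotransferase that breaks down glutathione in the cytosol. It was at 4.56, 6.64 and 11.6 CPM with AA2P, against 56.1, 48.7 and 53.3 CPM in controls. The highest AA2P library was far below the lowest control, although AA2P libraries differed among themselves more for this gene than for any other of the set, with a coefficient of variation of 47.8% against 7.04% in controls. CHAC1 fell 6.77-fold, with a log2 fold change of -2.76 ± 0.18 (SE, adjusted p = 2.2e-09, edgeR), and ranked 43 from the lowest of 12701 genes. Against the control mean the log2 differences were -3.53, -2.99 and -2.18 in AA2P libraries 1 to 3.

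DDIT4 (REDD1) and SESN2 encode inhibitors of mTORC1, the kinase complex that drives growth when amino acids are plentiful. DDIT4 acts through the TSC complex and is also induced by hypoxia and glucocorticoids. Its level was 115, 124 and 173 CPM with AA2P, against 555, 524 and 524 CPM in controls, with no overlap. DDIT4 fell 3.89-fold, with a log2 fold change of -1.96 ± 0.10 (SE, adjusted p = 2.2e-10, edgeR). SESN2, which binds leucine and restrains mTORC1 through GATOR2, was at 28.7, 35.2 and 37.6 CPM with AA2P, against 55.9, 49.1 and 49.3 CPM in controls. The groups again did not overlap, but the difference was smaller. SESN2 fell 1.52-fold, with a log2 fold change of -0.60 ± 0.09 (SE, adjusted p = 2.0e-05, edgeR).

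ASNS, the enzyme that makes asparagine from aspartate and glutamine, is a classical readout of ATF4. It was at 175, 181 and 238 CPM with AA2P, against 708, 738 and 721 CPM in controls. All AA2P libraries stood well below the controls, and AA2P library 3 was the highest of them. ASNS fell 3.65-fold, with a log2 fold change of -1.87 ± 0.09 (SE, adjusted p = 4.8e-11, edgeR), and ranked 125 from the lowest.

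Serine is made from a glycolytic intermediate by PHGDH, PSAT1 and PSPH, and SHMT2 splits it in mitochondria into glycine and a one-carbon unit. PHGDH, the first enzyme, was at 165, 181 and 164 CPM with AA2P, against 279, 289 and 279 CPM in controls. It fell 1.66-fold, with a log2 fold change of -0.73 ± 0.05 (SE, adjusted p = 5.6e-09, edgeR). PSAT1, the aminotransferase of the next step, was at 276, 274 and 279.6 CPM with AA2P, against 635, 658 and 645 CPM in controls. The AA2P libraries were nearly alike for PSAT1, with a coefficient of variation of 0.959%, and their log2 differences from the control mean were -1.23, -1.24 and -1.21. PSAT1 fell 2.34-fold, with a log2 fold change of -1.22 ± 0.05 (SE) and an adjusted p of 5.8e-12 by edgeR, rank 24 among all genes by p. SHMT2 was at 143, 162 and 205 CPM with AA2P, against 332, 314 and 314 CPM in controls. It fell 1.88-fold, with a log2 fold change of -0.91 ± 0.09 (SE, adjusted p = 3.1e-07, edgeR). The RefSeq span of SHMT2 overlaps that of NXPH4, so its count is uncertain to that extent.

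The remaining enzymes of serine and one-carbon metabolism went different ways. Of 12 tested, 5 fell, 1 rose and 6 did not pass, with a median log2 fold change of -0.09. Among all tested genes 26.1% were called lower and 26.0% higher. PSPH, the last step of serine synthesis, was at 29.1, 33.1 and 35.3 CPM with AA2P, against 79.1, 85.5 and 86.2 CPM in controls, and fell 2.56-fold (adjusted p = 1.6e-10, edgeR). Mitochondrial enzymes that carry the one-carbon unit onward also fell: ALDH1L2, a formyltetrahydrofolate dehydrogenase, by 2.32-fold, MTHFD2, a methylenetetrahydrofolate dehydrogenase, by 1.89-fold and MTHFD1L, which releases formate, by 1.80-fold. The mitochondrial folate carrier SLC25A32 was lower by 1.15-fold, a call lost with library totals and without AA2P library 2 or control library 2. In the cytosol SHMT1 had a log2 fold change of 0.06 with a 95% interval from -0.21 to 0.32, MTHFD1 one of 0.07 with an interval from -0.03 to 0.17 and ALDH1L1 one of -0.26 with an interval from -0.54 to 0.02, and none of these passed the test. ALDH1L1 was called lower without AA2P library 3 (-0.44, adjusted p = 0.0036), and MTHFD1 was called higher with library totals (0.24). MTHFD2L, the mitochondrial relative of MTHFD2, rose 1.18-fold but missed the threshold without control library 1 (adjusted p = 0.0546). The mitochondrial serine carrier SFXN1 and DLD, a subunit of the glycine cleavage system, had log2 fold changes of 0.07 and 0.06 and did not pass, but were called higher with library totals (0.24 and 0.23). With library totals 5 of the 12 were called higher and 4 lower, against 5720 and 1824 of all 12701 genes.

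**Figure D2:**
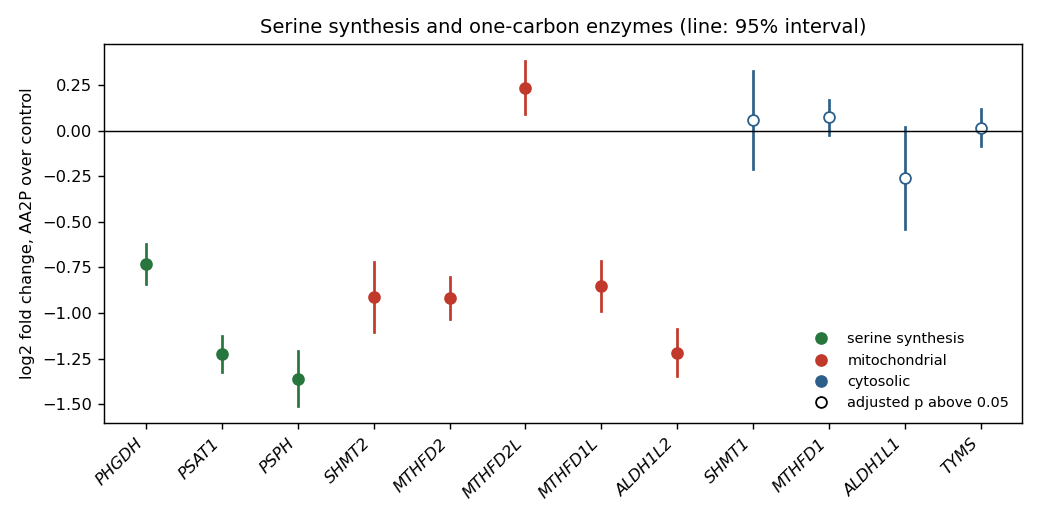
Log2 fold changes, AA2P over control, of serine synthesis and one-carbon enzymes, with 95% intervals; open points missed the adjusted p of 0.05. The 3 serine synthesis enzymes and the mitochondrial SHMT2, MTHFD2, MTHFD1L and ALDH1L2 lie between -1.36 and -0.73. The cytosolic SHMT1, MTHFD1 and TYMS lie near 0 under TMM scaling. Apart from these, the mitochondrial MTHFD2L lies at 0.24 and the cytosolic ALDH1L1 at -0.26.

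Ratios of 2 genes within a library do not depend on how libraries are scaled. Of 14 ratios computed, all chosen after the fold changes were seen, 12 did not overlap between the groups. Each of these 12 had a two-sided exact permutation p of 0.1, the smallest that 3 against 3 libraries can give, and 0.117 adjusted over the 14. Single genes did not overlap in 7532 of 12701 cases, and the share over gene pairs in general was not computed. Many of the pairs set a gene that fell against one that did not, so the count of separated ratios describes the chosen pairs only. The log2 ratio of SHMT2 to SHMT1 CPM averaged 4.88 ± 0.21 with AA2P and 5.86 ± 0.05 in controls (SD, n = 3 each), a difference of -0.99. The log2 ratio of MTHFD1L to MTHFD1 was lower with AA2P by a similar amount, -0.93, and that of ALDH1L2 to ALDH1L1 by -0.94. The mitochondrial member of each pair thus fell relative to its cytosolic counterpart in every AA2P library. Along the serine pathway the log2 ratio of PSAT1 to PHGDH averaged 0.70 ± 0.09 with AA2P and 1.19 ± 0.01 in controls (SD, n = 3 each), while that of PSPH to PSAT1 differed by -0.14 and overlapped, with an exact permutation p of 0.2. The log2 ratio of MTHFD2 to SHMT2 differed by 0.01, with an exact permutation p of 0.9. The log2 ratio of ASNS to PSAT1 averaged -0.50 ± 0.23 with AA2P and 0.16 ± 0.004 in controls (SD, n = 3 each).

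Relatives of the targets in the same gene families went both ways. Of 8 relatives 7 were tested, 4 rose, 2 fell and SHMT1 did not pass, where 26.0% of all tested genes were called higher, and the median log2 fold change was 0.24. SESN3 was at 132, 126 and 98.4 CPM with AA2P, against 65.9, 61.2 and 68.4 CPM in controls, and rose 1.82-fold (adjusted p = 3.7e-07, edgeR). SESN1, a p53-responsive sestrin, rose 1.41-fold (adjusted p = 0.00262, edgeR). Both sestrins thus moved opposite to SESN2, and the log2 ratio of SESN2 to SESN3 averaged -1.81 ± 0.41 with AA2P and -0.34 ± 0.12 in controls (SD, n = 3 each). Of the tribbles pseudokinases, TRIB2 fell 1.58-fold and TRIB1 rose 1.18-fold, against the 4.97-fold fall of TRIB3. CHAC2, the constitutive relative of CHAC1, was at 1.15, 1.09 and 1.07 CPM with AA2P and 0.766, 0.661 and 0.583 CPM in controls, a 1.63-fold rise that rests on 12 to 26 counts a library (adjusted p = 0.0414, edgeR). At the same threshold the CHAC2 call was lost in 9 alternatives. It was lost with any 1 library left out and with the DESeq2 Wald test, where its adjusted p was 0.204. The others were no filter on low counts (adjusted p = 0.086, edgeR) and a block for the replicate number (adjusted p = 0.0625, edgeR). ATF5, a bZIP factor related to ATF4 and also controlled in translation, fell 1.96-fold (adjusted p = 1.4e-07, edgeR). DDIT4L, the relative of DDIT4, had at most 5 counts in a library and was not tested.

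**Figure D3:**
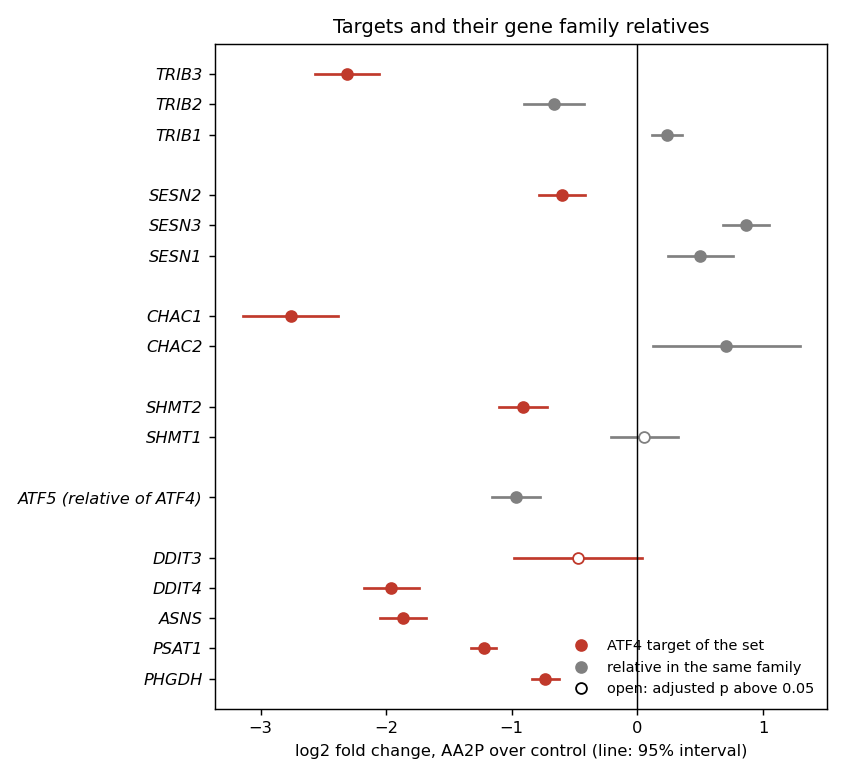
Log2 fold changes, AA2P over control, of the 9 ATF4 targets (red) and of tested family relatives (grey), with 95% intervals; open points missed the adjusted p of 0.05. SESN1, SESN3, TRIB1 and, on few counts, CHAC2 lie right of 0, whereas SESN2, CHAC1 and TRIB3 lie left of it.

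**Figure D4:**
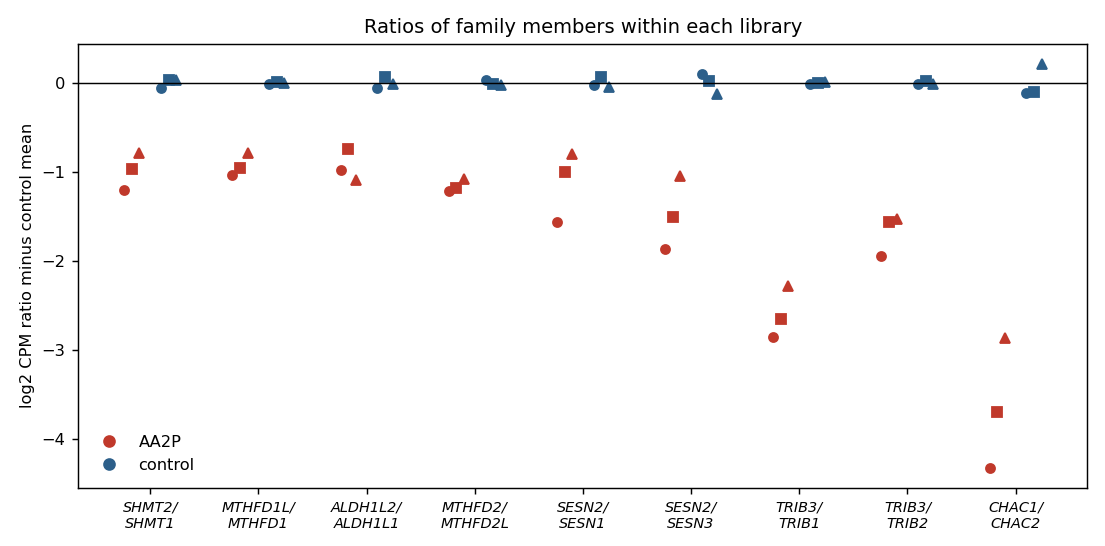
Log2 CPM ratios of gene pairs within each library, shown as the difference from the mean of the controls; circles, squares and triangles are libraries 1, 2 and 3. The 9 pairs shown were chosen after the fold changes were seen, and all separate the groups. AA2P libraries are lower by means of -0.93 (MTHFD1L to MTHFD1) to -3.63 (CHAC1 to CHAC2, on few CHAC2 counts).

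Amino acid transporters of the ATF4 response were mostly lower with AA2P. Of 9 tested, 8 fell and 1 rose, against 26.1% and 26.0% of all tested genes. Their median log2 fold change was -1.02. Scaling by library totals gave 7 lower and 1 higher, the call of the glutamine carrier SLC38A2 being lost. The SLC38A2 call was also lost without AA2P library 2, control library 1 or control library 3. SLC7A11, the cystine-glutamate antiporter, was at 18.3, 14.5 and 28.5 CPM with AA2P, against 109, 113 and 123 CPM in controls, and fell 5.56-fold (adjusted p = 7.1e-10, edgeR). SLC1A4, which carries serine, alanine and cysteine, fell 3.21-fold, SLC7A5, the light chain of the leucine transporter, 2.40-fold and SLC7A1, a carrier of arginine and lysine, 1.97-fold. SLC3A2, the heavy chain shared by SLC7A5 and SLC7A11, fell 2.03-fold. SLC7A3, the one transporter that rose, was at 3.50, 4.01 and 4.07 CPM with AA2P and 2.39, 2.37 and 3.45 CPM in controls, and its call was lost when AA2P library 2 or 3 or control library 1 or 2 was left out.

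Of 10 other enzymes of amino acid synthesis, 6 fell, 1 rose and 3 did not pass, with a median log2 fold change of -0.49. The shares over all tested genes were 26.1% lower and 26.0% higher. The enzymes that make cysteine from homocysteine fell together: CTH was at 34.9, 33.2 and 42.1 CPM with AA2P, against 149, 148 and 158 CPM in controls, a 4.12-fold fall, and CBS fell 2.70-fold. PYCR1, a mitochondrial enzyme of proline synthesis, fell 2.57-fold and BCAT1, the cytosolic branched-chain aminotransferase, 2.15-fold. GOT2, the mitochondrial aspartate aminotransferase, was the one that rose, by 1.24-fold.

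Other targets described for ATF4 or CHOP also fell in most cases, 10 of 13 tested against 26.1% of all tested genes. None was called higher, and the median log2 fold change was -0.64. STC2, a secreted stanniocalcin, had the largest decrease among the targets and these pathway lists, at 39.7, 41.1 and 80.5 CPM with AA2P, against 434, 425 and 442 CPM in controls, a fall with a 95% interval of the log2 fold change from -3.38 to -2.62 (adjusted p = 7.1e-10, edgeR). AA2P library 3 stood at nearly double the other AA2P libraries and still far below the controls. PMAIP1, the pro-apoptotic NOXA, fell 3.93-fold, VLDLR, a lipoprotein receptor, 2.41-fold and ERO1A, an oxidase of the endoplasmic reticulum that hypoxia also induces, 2.18-fold. KLHL24, BBC3 and FGF21 did not pass the test, with log2 fold changes of 0.21, -0.12 and 0.09. KLHL24 missed the threshold narrowly (adjusted p = 0.0508, edgeR). It was called higher without AA2P library 3 (0.33, adjusted p = 2.5e-05) or control library 3 (0.26, adjusted p = 0.0462). The same held with library totals (0.38, adjusted p = 0.00148), no filter (0.20, adjusted p = 0.00319) and a minimum of 1 CPM in 3 libraries (0.21, adjusted p = 0.0487).

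The bZIP proteins that pair with ATF4 or follow it, listed with the related factor NUPR1, were mostly lower. Of 7 tested, 6 fell, none rose and CEBPD did not pass, with a median log2 fold change of -0.84. Among all tested genes 26.1% fell. NUPR1, which is not itself a bZIP protein, was 1 of the 6 and fell 1.76-fold. CEBPG, a dimer partner of ATF4, was at 48.8, 46.0 and 49.3 CPM with AA2P, against 90.3, 93.4 and 92.6 CPM in controls, a 1.92-fold fall (adjusted p = 5.9e-10, edgeR). ATF3 fell 1.82-fold and JDP2 1.79-fold. CEBPD was called higher with library totals.

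For the mRNAs of the machinery upstream of ATF4, the shares called in each direction were near those of all tested genes. Of 15 genes tested, 4 fell, 3 rose and 8 did not pass, against 26.1% lower and 26.0% higher of all tested genes. The 15 encode eIF2 kinases, their regulators DNAJC3, IMPACT and GCN1, the eIF2 phosphatase subunits, eIF2 and eIF2B. Their median log2 fold change was -0.08. With library totals 6 were called higher and 3 lower, against 5720 and 1824 of all 12701 genes. The kinases EIF2AK1 (HRI), EIF2AK3 (PERK) and EIF2AK4 (GCN2) had log2 fold changes of -0.01 with a 95% interval from -0.13 to 0.10, -0.08 with an interval from -0.21 to 0.05, and -0.12 with an interval from -0.22 to -0.01, and did not pass the adjusted threshold. With library totals the values of EIF2AK1, EIF2AK3 and EIF2AK4 were 0.16, 0.09 and 0.05, and EIF2AK1 was called higher. EIF2AK2 (PKR), the kinase that binds double-stranded RNA, was higher by 1.17-fold, though not without control library 1 (adjusted p = 0.0752). PPP1R15A (GADD34), the inducible phosphatase subunit and itself a target of the pathway, had a log2 fold change of -0.12 with an interval from -0.25 to 0.005. DNAJC3, an inhibitor of these kinases, fell 1.72-fold, the eIF2 subunit EIF2S2 1.48-fold, IMPACT 1.27-fold and the eIF2B subunit EIF2B3 1.23-fold. The call of EIF2B3 was lost with library totals (adjusted p = 0.0845, edgeR). Kinase activity and phosphorylation of eIF2 were not measured.

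Genes of the other arms of the unfolded protein response, which XBP1 and ATF6 control, were lower as well. All 19 tested fell, with a median log2 fold change of -0.48 and a range from -1.08 to -0.15, and 16 did so with library totals. Of all 12701 tested genes 26.1% fell, and 1824 genes did so with library totals. EDEM1, which directs misfolded glycoproteins to degradation, fell 1.76-fold, SEL1L, a scaffold of that route, 1.71-fold, the co-chaperone DNAJB9 2.11-fold and ATF6 itself 1.56-fold. HSPA5, the chaperone BiP, fell 1.49-fold. With 9 targets against 19 genes, a 2-fold fall was reached by 5 of the ATF4 targets and by 1 gene of this list, DNAJB9.

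Genes of the mitochondrial stress relay and its chaperones went both ways. Of 8 tested, 3 fell, 3 rose and 2 did not pass, against 26.1% lower and 26.0% higher of all tested genes. Their median log2 fold change was 0.06. Scaling by library totals gave 5 higher and 2 lower, against 5720 and 1824 of all 12701 genes. HSPD1 and HSPE1, the mitochondrial chaperonins, rose 1.25-fold and 1.34-fold, and the protease LONP1 fell 1.30-fold. DELE1, which passes mitochondrial stress to HRI, had a log2 fold change of 0.08 with a 95% interval from -0.11 to 0.27, and was called higher with library totals (0.25).

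Components of mTORC1 and its nutrient sensors, on which DDIT4 and SESN2 act, went both ways, and the number called in each direction depended on the scaling. Of 23 tested, 4 rose, 5 fell and 14 did not pass, whereas with library totals 13 rose and 1 fell. Over all 12701 tested genes 26.0% rose and 26.1% fell, and with library totals 5720 rose and 1824 fell. DEPDC5, a GATOR1 subunit, rose 1.51-fold. MTOR itself was at 97.7, 102 and 102 CPM with AA2P, against 125, 127 and 123 CPM in controls, a 1.25-fold fall. DEPDC5 and MTOR kept their calls under all 14 alternatives run. The GATOR2 subunits did not move together: SEC13 and SEH1L fell by 1.21-fold and 1.17-fold, calls lost with library totals (adjusted p = 0.0903 and 0.337, edgeR), MIOS and WDR24 rose by 1.17-fold and 1.16-fold, and WDR59 did not pass. The MIOS call was lost without control library 2 (adjusted p = 0.0587, edgeR) and that of WDR24 in 6 alternatives at the same threshold. WDR59 was called higher with library totals (0.31, adjusted p = 0.000674, edgeR) and without control library 2 (0.19, adjusted p = 0.0476, edgeR). CASTOR1, an arginine sensor, was lower by 1.97-fold on few counts, at 0.329 to 0.496 CPM with AA2P and 0.583 to 0.901 CPM in controls, and its call was lost in 7 alternatives at the same threshold, library totals among them (adjusted p = 0.0607, edgeR).

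**Figure D5:**
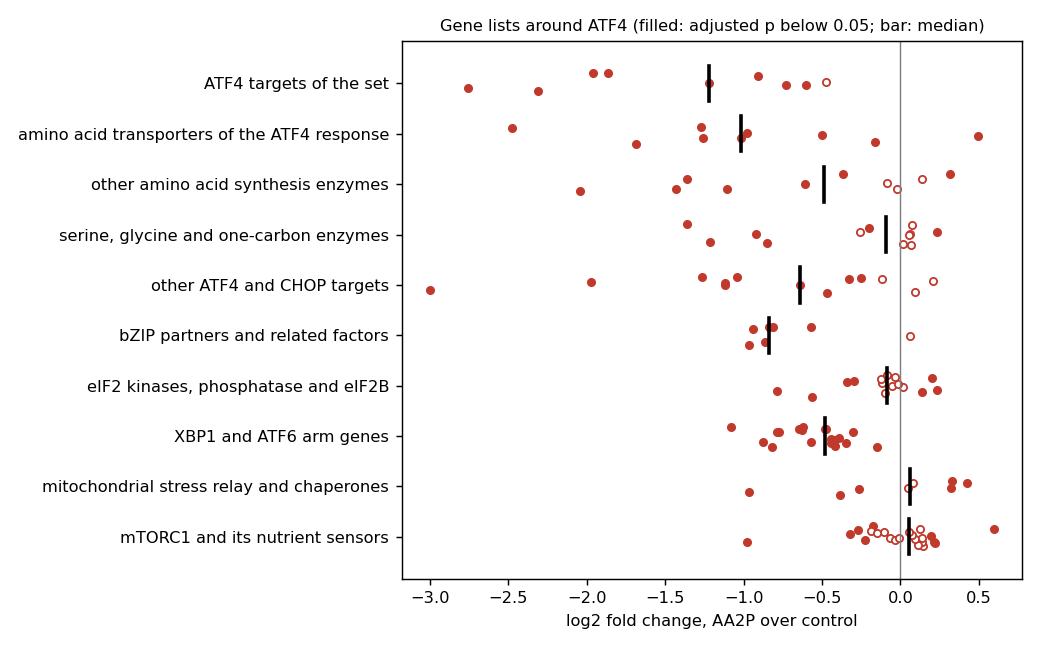
Log2 fold changes, AA2P over control, of single genes (points) in lists around ATF4; filled points passed the adjusted p of 0.05, black bars are medians and vertical scatter is only for display. The ATF4 targets, the transporters, and the bZIP partners with related factors have medians of -1.22, -1.02 and -0.84. For other ATF4 or CHOP targets, other amino acid synthesis enzymes, and XBP1 and ATF6 genes the medians are -0.64, -0.49 and -0.48. The medians of the serine and one-carbon, eIF2, mitochondrial and mTORC1 lists lie within 0.1 of 0.

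The genes whose levels over the 6 libraries followed ASNS most closely were LCN2, IQGAP1, EPRS1, PRSS35 and EHF, with Pearson r of 0.9995 to 0.9999 for log2 CPM. LCN2, which encodes lipocalin 2, was at 8.43 CPM on average with AA2P and 69.4 CPM in controls, and EPRS1, a tRNA synthetase, at 488 CPM with AA2P and 734 CPM in controls. Among 9214 genes with a symbol and at least 5 CPM, 1374 had an r above 0.95, since the groups differ in many genes and the 6 libraries are shared, so r describes the resemblance and carries no test. Among the ATF4 targets r with ASNS was 0.998 for DDIT4 and TRIB3, 0.991 for PSAT1, 0.990 for CHAC1, 0.982 for SHMT2, 0.972 for PHGDH, 0.944 for SESN2 and 0.664 for DDIT3.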

How the data were processed

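Counts came from RNA of cultured pig cells. The submitters' processing notes name bcl2fastq and HISAT2 2.0.5. How reads were counted, with which strand setting, annotation and genome build, is not given in the sources used here. Values are read counts per Ensembl gene as deposited, whole and without normalization. A name table gave symbols for 13141 of 17670 genes. A level of 3 counts equals 0.123 to 0.165 CPM, which covers counting error only.

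Tests used edgeR 4.0.16 in R 4.3.3 (quasi-likelihood F test, TMM factors, filterByExpr, group as the only term) with Benjamini-Hochberg adjustment over 12701 genes. The SE was derived from the log2 fold change and its F statistic, and intervals cover 95%. CPM are TMM scaled. The procedure was tested on simulated data. Within groups, libraries differed beyond sampling noise (chi-square per degree of freedom 2.70 to 12.1).

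The members, lists and alternatives were chosen with earlier results of these data known. Some genes stand in several lists and are counted in each, among them ATF5, DNAJC3 and SHMT1. The text names all targets and relatives and, per list, up to 4 called genes by smallest p. Other genes it names were chosen after their values were seen. Resemblance and ratios were to be taken against ATF4. It had no row, so ASNS and gene pairs were used, also chosen after seeing the values. Alternatives were DESeq2 1.42.0 size factors, library totals, no filter, a minimum of 1 CPM in 3 libraries, the Wald test of DESeq2, limma-voom (limma 3.58.1), a block for the replicate number, leaving out each library and an adjusted p of 0.01. A gene of the one-carbon list is not reported here.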

Additional observations from a re-analysis of the deposited data

How the results depend on the processing

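The 8 calls among ATF4 targets held under all 14 alternatives, and 9 were called lower without AA2P replicate 3 or control replicate 2. The labels do not say whether the replicate numbers pair the samples. Correlations of same-numbered deviations were -0.04, -0.02 and -0.06, and no AA2P library correlated best with its own number. These deviations were taken from the means of groups of 3 libraries, so they cannot show that no animal or day was shared. With the replicate number as a block 6204 genes were called in place of 6615, with 8 targets lower. Library totals gave 5720 genes higher and 1824 lower. They also gave these numbers of genes called higher: 1 bZIP partner, 6 in the eIF2 list, 5 in the mitochondrial list, 13 in the mTORC1 list (and 1 lower), 3 other amino acid synthesis enzymes, 1 other ATF4 or CHOP target and 5 serine, glycine and one-carbon enzymes. At an adjusted p of 0.01, 0 amino acid transporters and 1 gene of the eIF2 list were called higher, and 3 genes of the mTORC1 list lower. By the DESeq2 Wald test 0 amino acid transporters were called higher. Among other ATF4 or CHOP targets 1 was called higher with no filter on low counts and 1 with a minimum of 1 CPM in 3 libraries. Leaving out 1 library at a time gave 0 to 1 amino acid transporters called higher (0 without AA2P replicate 2 or 3 or control replicate 1 or 2), 0 to 1 other ATF4 or CHOP targets called higher and 0 to 1 serine, glycine and one-carbon enzymes called higher. For DDIT3 the low counts limit what can be detected. Ratios of targets to ATF4 were planned and not run, because ATF4 had no row.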
